A study of Mus musculus with 71 samples.

Results

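Whole blood RNA of 12 HOCl-induced mice given D06 was compared with that of 12 HOCl-induced mice given E07. These 24 mice, grouped by their labels, were part of 71 mice in 6 groups, and every gene of the deposited expression table was examined. The comparison itself was chosen with earlier results of these data known. By the methods of the study, the mice were young female Balb/c AnNRj animals in which repeated intradermal injections of hypochlorous acid (HOCl) gave a model of systemic sclerosis (SSc), an autoimmune disease with fibrosis of the skin and lungs. The labels give the genotype of every group as HOCL, controls included. E07 is a neutralising monoclonal antibody (mAb) against galectin-3 (Gal-3) in human IgG1 format, with LALA mutations in the Fc part, which dampen effector functions, and it recognises the carbohydrate recognition domain of its target. D06 is a code name which the labels give only as a treatment. The series is described as a comparison of 3 anti-Gal-3 mAbs without naming them, and the nature, dose and route of D06 are not given in the sources used here. The comparison asks how the blood transcriptome of HOCl-induced mice differed between these treatments. Values of 12 HOCl mice and 11 control mice, neither given an antibody, are set beside it for orientation, with 1 HOCl mouse having counts only. The groups were housed in separate cages, so that cage and treatment cannot be told apart. The methods describe fewer mice than the series holds and no D06 group, so it is not given whether D06 and E07 mice belonged to the same experiment, and a difference between experiments cannot be told apart from one between treatments either.

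Galectin-3 is a sugar-binding protein made by many leukocytes and is linked with inflammation and fibrosis. In whole blood, RNA comes from leukocytes, from platelets, which carry transcripts of their megakaryocyte precursors, and from reticulocytes. Reticulocytes are the youngest circulating red cells, and while they mature they clear their mitochondria, ribosomes and finally their RNA, so the level of red cell transcripts follows the number and the age of these cells. In bulk blood, fewer cells of a type and less RNA per cell cannot be told apart, and this holds for every gene group below.

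Relative to the typical gene of each mouse, genes of red cells and platelets were higher in D06 than in E07 mice. Genes of B cells and MHC class II were lower. Scaled to all reads, the platelet genes had a median difference of 0.05 on the log2 scale, with 0 called higher and 0 lower. The counts deposited for the 24 mice summed to 12427021 to 15948972 per mouse, and no difference in this depth was detected by a permutation test (two-sided, mean difference 0.0021 on the log2 scale, adjusted p = 0.952 over 5 single values per mouse). At this like depth, 62 genes of red cells took a larger share of the reads in D06 mice. The red cell share was at lowest 7.66%, at the median 10.1% and at highest 17.7% in D06 mice, against 5.34%, 7.23% and 10.3% in E07 mice. All 12 D06 mice lay above the E07 median and 4 lay above the highest E07 mouse, so the ranges overlapped. The mean was 10.6% ± 2.64 (SD, n = 12) in D06 and 7.31% ± 1.62 (SD, n = 12) in E07 mice, a difference of 3.25 percentage points (permutation test, two-sided, adjusted p = 0.00127). HOCl mice had 11.8% ± 2.22 (SD, n = 12) and control mice 7.65% ± 2.21 (SD, n = 11). Most of this share was Alas2, which alone took 6.79% of the counts in D06 and 4.74% in E07 mice. Globin genes, which the library kit depletes, took 0.411% and 0.256%, and without them the difference in red cell share was 3.09 percentage points (permutation p = 0.00072).

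**Figure D1:**
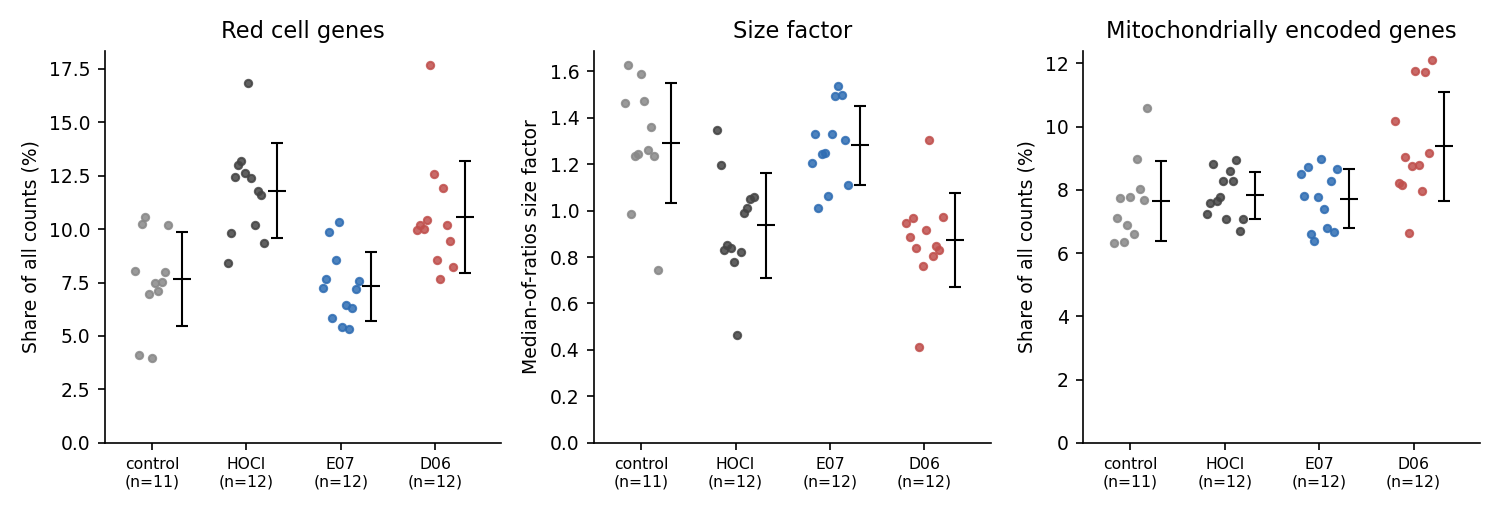
Share of counts on red cell genes (%), median-of-ratios size factor, and share of counts on mitochondrially encoded genes, ribosomal RNAs included (%), for each mouse (points) with the group mean ± SD beside it, in control, HOCl, E07 and D06 mice. D06 mice sit above E07 mice in the first panel (means 10.6% and 7.31%) and below them in the second (0.874 and 1.28), and 1 D06 mouse at 17.7% and a size factor of 0.414 stands apart.

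The size factor, the number by which counts of a mouse are divided so that its typical gene matches that of other mice, was lower in D06 mice. It was 0.874 ± 0.201 (SD, n = 12) in D06 and 1.28 ± 0.171 (SD, n = 12) in E07 mice, with 11 of 12 D06 mice below the lowest E07 mouse (permutation test on the log2 scale, two-sided, difference -0.58, adjusted p = 0.0002). The typical gene of a D06 mouse thus took a smaller part of the same depth. Mitochondrially encoded genes, ribosomal RNAs included, took 9.38% ± 1.72 (SD, n = 12) of the counts in D06 and 7.72% ± 0.928 (SD, n = 12) in E07 mice, a difference of 1.66 points (permutation test, adjusted p = 0.0082). That difference lay in the mitochondrial ribosomal RNAs (7.17% and 5.52%), while mitochondrial messenger RNAs took 2.20% and 2.19%. D06 mice were also more dispersed, with a mean distance to the group centre over all genes of 0.316 ± 0.0661 (SD, n = 12) against 0.216 ± 0.0426 (SD, n = 12) in E07 mice (permutation test, two-sided, adjusted p = 0.0002, and 12 of 12 D06 mice above the E07 median). D06 mouse 5 stood apart, with the highest red cell share and the lowest size factor of the 24. Without it the difference in red cell share was 2.60 points (permutation p = 0.00094) and that of the size factor -0.49 (permutation p = 2e-05).

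Among the 10508 genes of the variance-stabilised (vst) table, whose values are on a log2-like scale, 1026 (9.76%) differed between D06 and E07 mice by limma, with 0.05 as the highest false discovery rate (FDR) and 1.3 as the lowest fold change (FC) allowed. Of these, 885 (8.42%) were higher in D06 mice and 141 (1.34%) were lower. The higher genes had a median difference of 0.64 on the log2 scale, a 1.55-fold change, and 190 of them exceeded 1. The lower genes had a median difference of -0.45, and 0 of them reached 1 in size. Calls were concentrated among abundant genes, with 587 higher and 39 lower genes among the 2627 most abundant against 73 and 49 among the 2627 least abundant. Counts of list members below are to be read against these numbers and the shares over all genes. edgeR on the counts of the same genes called 1322 (12.6%), 1056 higher (10.1%) and 266 lower (2.53%), and 984 genes were called by both tools. Without D06 mouse 5, limma called 933 genes (8.88%), 807 higher (7.68%) and 126 lower (1.2%), of which 900 were shared with the fit of all 24 mice.

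**Figure D2:**
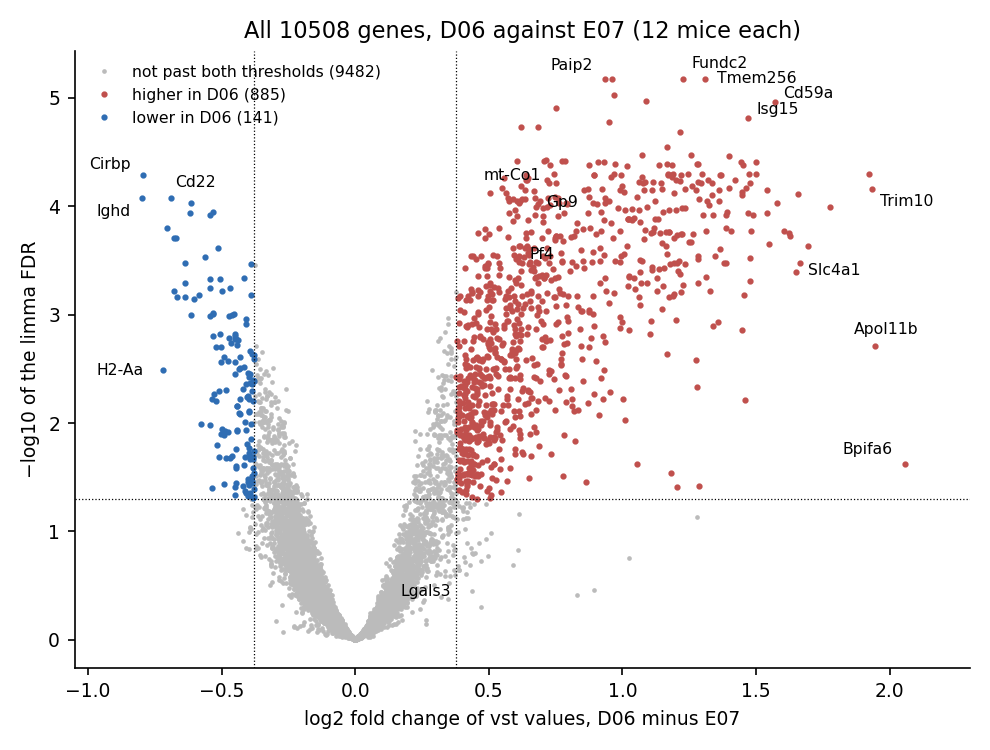
Each point is 1 of 10508 genes, placed by its log2 difference in vst value between D06 and E07 mice (x axis) and by −log10 of the limma FDR (y axis), with dotted lines at the FDR and fold change thresholds. The 885 higher genes (red) reach a difference of 2.06 and the 141 lower genes (blue) stop at -0.80, with galectin-3 (Lgals3) near the centre.

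How many genes were called, and how many of them as higher or lower, depended on how depth was taken into account. The vst values are relative to the typical gene of each mouse, whereas scaling to the total count is relative to all reads, the most abundant genes included. Which genes made up the difference between these scalings was not tested. With total-count scaling the median of all genes moved from -0.04 to -0.59 on the log2 scale, and 7793 genes (74.2%) passed, 305 higher (2.9%) and 7488 lower (71.3%). Of the 885 genes called higher on vst values, 676 kept their sign under total-count scaling and 301 were still called higher, and all 141 lower genes were still called lower. Differences below are on the vst scale unless stated, and thus relative to the typical gene. With a red cell score per mouse as a covariate, which is made from 61 of the genes tested, limma called 0 genes (1313 at an unadjusted p under 0.05) and edgeR called 20, 17 higher and 3 lower (1254 at an unadjusted p under 0.05). The score ranged from -0.39 to 2.04 in D06 and from -1.01 to 0.14 in E07 mice, so that the score and the treatment were largely shared, and no value separates their parts in a gene's difference.

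Genes of the red cell membrane had the highest list median. Of 12 genes of the membrane skeleton, the spectrin network that gives red cells their shape, 9 were higher in D06 mice, 0 were lower and the list median was 1.31 on the log2 scale, against 8.42% called higher and a median of -0.04 over all genes. They included Epb42, Tmod1, Mpp1, Sptb, Add2, Epb41, Ank1 and Dmtn, with differences from 1.16 to 1.65, while the widely expressed members Add1 (0.38), Tmod3 (0.11) and Actb (0.08) did not pass. The mean vst value of the 12 genes was higher in 10 of 12 D06 mice than in any E07 mouse. With total-count scaling the list median was still 0.94, with 9 genes called higher and 2 lower.

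Of 25 genes of the red cell surface and its transporters, 19 were higher, 0 were lower and the median was 0.71. Slc4a1 encodes band 3, the anion exchanger that carries bicarbonate across the red cell membrane. Its vst value was at lowest 12.69, at the median 14.14 and at highest 16.48 in D06 mice, against 11.41, 12.20 and 13.79 in E07 mice. Only 2 D06 mice fell within the E07 range, and the other 10 lay above it. The difference was 1.66 ± 0.31 (SE), a 3.17-fold change (limma FDR = 0.000333). Cd59a, which encodes an inhibitor of the complement membrane attack complex, had 11.31, 12.02 and 13.22 as lowest, median and highest in D06 mice and 9.69, 10.30 and 11.59 in E07 mice (difference 1.57 ± 0.20 SE, limma FDR = 1.1e-05). Of the D06 mice, 11 of 12 exceeded every E07 mouse. Carbonic anhydrase 2 (Car2, 1.60), the blood group proteins Kel (1.39) and Rhd (1.18), and the water channel Aqp1 (0.83) also rose, whereas the glucose transporter Slc2a1 (0.08), the urea transporter Slc14a1 (-0.11) and the mechanosensitive channel Piezo1 (-0.13) did not pass. With total-count scaling 14 were called higher and 4 lower, with a median of 0.55.

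Heme synthesis was split within the pathway. Of 16 genes, 8 were higher, 0 were lower and the median was 0.40. Alas2, the erythroid enzyme that begins heme synthesis, was the most abundant of these, with vst values from 19.28 over 19.95 to 21.86 in D06 and from 18.27 over 18.98 to 19.70 in E07 mice. Of the D06 mice, 8 lay above the E07 range, and the difference was 1.11 ± 0.21 (SE, limma FDR = 0.000362). The later enzymes Urod (1.45) and Fech (1.15) rose too, as did biliverdin reductase B (Blvrb, 1.66), which acts on products of heme breakdown. Alas1, the form of the first enzyme used outside the red cell lineage, differed by -0.15 and Hmox1, the heme-degrading enzyme, by 0.06, and neither passed. With total-count scaling the list median was -0.03, with 6 genes called higher and 2 lower.

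The promoters of 3 of these strongly changed red cell genes are shown because each holds the core site of the GATA factors, of which GATA1 directs red cell genes. They are the 250 bases before the gene start in GRCm39, the build also named mm39, 5′ to 3′ on the strand of the gene. The gene start is taken as the start of the canonical transcript, the 1 transcript chosen for each gene in the annotation. Capitals mark the letters AGATAA or, on the other strand, TTATCT.
Alas2, chrX:149330121-149330370, plus strand: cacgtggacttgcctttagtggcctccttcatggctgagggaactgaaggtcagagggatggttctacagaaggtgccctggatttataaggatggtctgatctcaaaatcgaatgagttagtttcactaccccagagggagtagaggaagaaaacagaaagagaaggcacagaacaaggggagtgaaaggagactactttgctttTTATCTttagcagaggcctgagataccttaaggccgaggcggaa
Slc4a1, chr11:102256107-102256356, minus strand: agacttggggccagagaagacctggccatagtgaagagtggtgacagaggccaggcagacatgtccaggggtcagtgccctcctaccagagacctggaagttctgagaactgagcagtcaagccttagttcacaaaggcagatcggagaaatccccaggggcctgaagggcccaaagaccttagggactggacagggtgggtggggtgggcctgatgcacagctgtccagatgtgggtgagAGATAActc
Trim10, chr17:37180156-37180405, plus strand: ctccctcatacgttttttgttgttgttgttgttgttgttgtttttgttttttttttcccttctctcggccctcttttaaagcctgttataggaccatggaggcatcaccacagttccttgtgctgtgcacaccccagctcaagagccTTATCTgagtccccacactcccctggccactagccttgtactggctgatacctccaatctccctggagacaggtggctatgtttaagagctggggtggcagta
The matches begin at -44, -9 and -103 from the gene start. Trim10, which encodes a tripartite motif protein needed for terminal red cell differentiation, ran from 12.09 over 13.45 to 15.29 in D06 and from 10.54 over 11.32 to 12.78 in E07 mice, with 10 D06 mice above the E07 range (difference 1.93 ± 0.30 SE, limma FDR = 6.96e-05). The motif was in the same window of 5 of the 16 heme genes, 4 of the 25 surface genes, 2 of the 12 membrane skeleton genes and 5 of the 34 genes of reticulocyte maturation, the list that holds Trim10. It was in 2 of the 21 transcription factors of the lineage and 1 of the 13 iron genes, with 0 of those called higher in either list. Of 12 basophil and mast cell genes, of which 0 were called, 5 held it. It was also in 7.83% of all genes tested, in 9.38% of the genes called higher and in 8.51% of those called lower.

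Globins were measured with less precision. Of 8 genes of the globins and their kinase, 3 were higher and 0 lower. Hbb-bt, a beta globin, ran from 10.76 over 12.08 to 13.34 in D06 and from 10.03 over 10.80 to 12.34 in E07 mice, and 3 D06 mice lay above the E07 range (difference 1.22 ± 0.24 SE, limma FDR = 0.000616). The theta globins Hbq1b (1.17) and Hbq1a (0.76) also passed. Hba-a1, an alpha globin, spread from 8.61 to 15.08 in D06 and from 9.58 to 14.57 in E07 mice, and its difference of 0.83 ± 0.59 (SE) did not pass (limma FDR = 0.384). Hba-a1 and Hba-a2, Hbb-bs and Hbb-bt, and Hbq1a and Hbq1b are near-identical copies whose reads could be split between them, so single values are uncertain, and the depletion step acts on these genes directly.

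**Figure D3:**
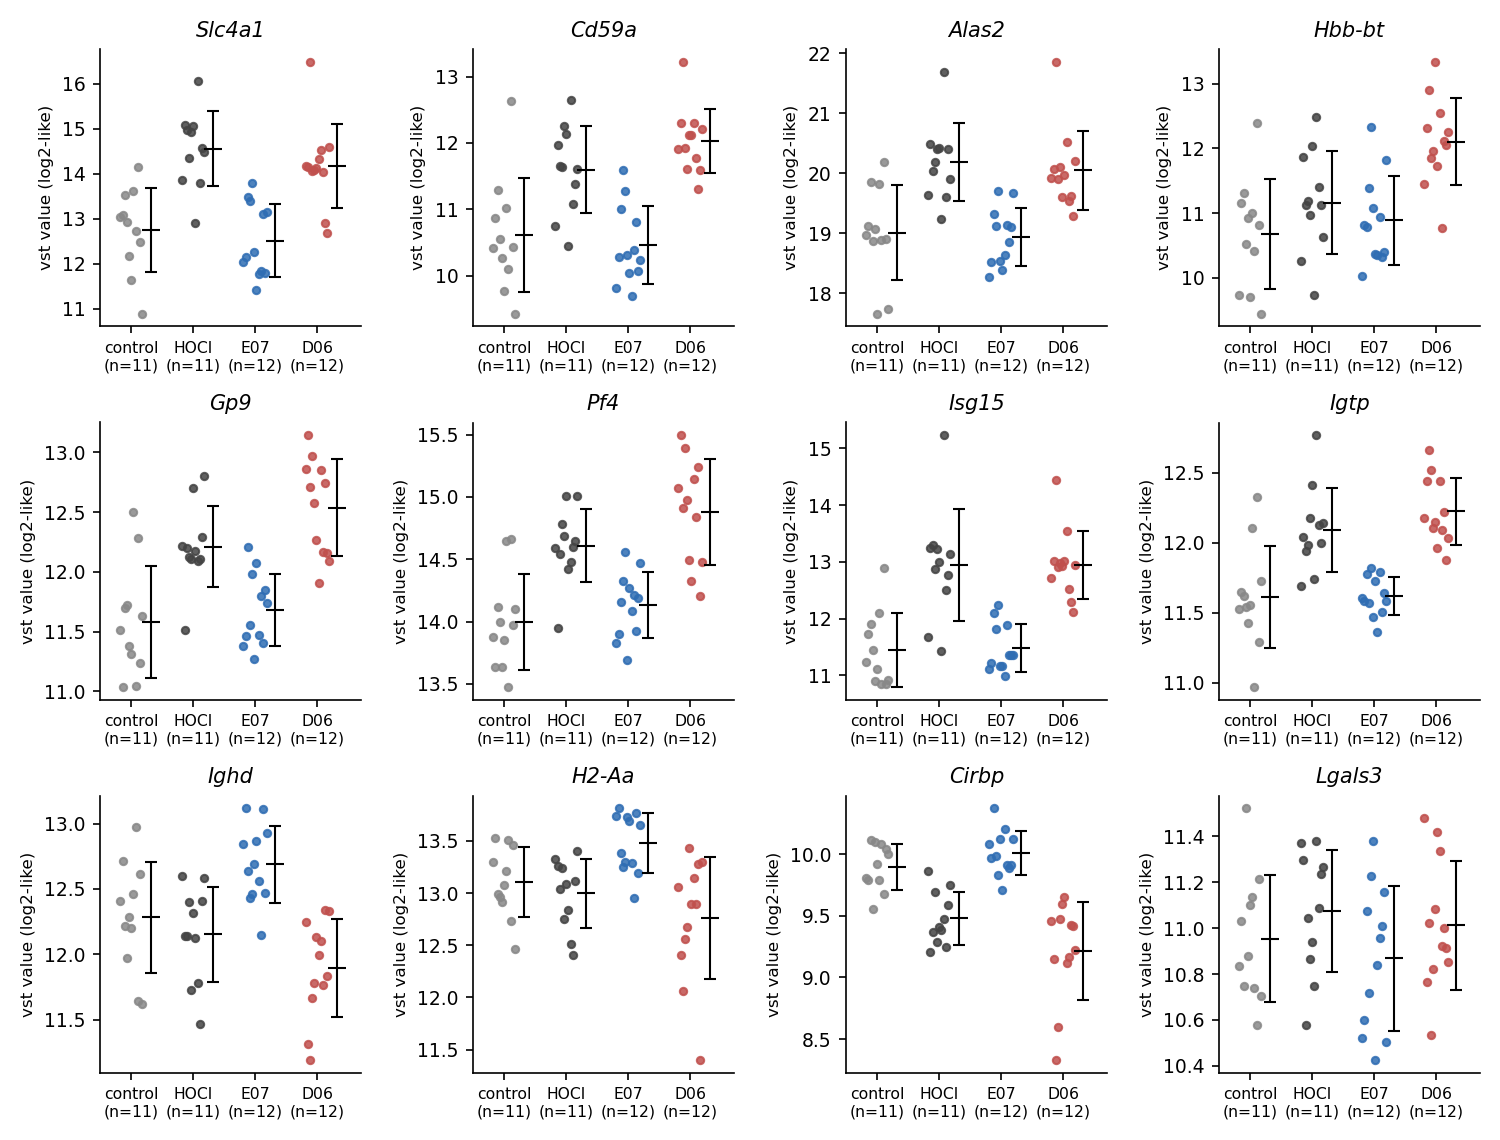
vst value (log2-like) of 12 genes in each control, HOCl, E07 and D06 mouse (points), with the group mean ± SD (bars). Red cell (Slc4a1, Cd59a, Alas2, Hbb-bt), platelet (Gp9, Pf4) and interferon-stimulated genes (Isg15, Igtp) sit higher in D06 than in E07 mice, B cell and MHC class II genes (Ighd, H2-Aa) and Cirbp sit lower, and Lgals3 overlaps.

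Genes of reticulocyte maturation, which act in the removal of organelles and proteins, were higher in 25 of 34 cases, with 0 lower and a median of 0.93. Bnip3l, the receptor that hands mitochondria of reticulocytes to autophagy, ran from 16.83 over 18.02 to 19.37 in D06 and from 16.04 over 16.74 to 17.40 in E07 mice. It was above the E07 range in 11 of 12 D06 mice (difference 1.24 ± 0.19 SE, limma FDR = 5.01e-05). Among the other members, the nuclear export receptor Xpo7 (1.28) and ubiquitin B (Ubb, 1.22) rose. With total-count scaling 20 were called higher and 3 lower. Of 21 transcription factors of the lineage, 10 were higher and 0 lower, with E2f2 at 1.37, Gata1 at 0.61 and Klf1 at 0.59, while Epor, the erythropoietin receptor (0.29), and Bcl11a (-0.32) did not pass. With total-count scaling 4 of the 21 were called higher and 8 lower. Of 13 iron genes, 4 rose and 0 fell, against 8.42% of all genes called higher, with a list median of 0.03. The 4 were the mitochondrial iron importer Slc25a37 (1.20), the ferritin autophagy receptor Ncoa4 (1.01) and the ferritin chains Ftl1 (0.89) and Fth1 (0.82). With total-count scaling 1 of the 13 was called higher and 8 lower. The transferrin receptor Tfrc, which is high on the youngest reticulocytes, ran from 9.70 over 10.45 to 12.74 in D06 and from 9.18 over 9.69 to 12.22 in E07 mice, and its difference of 0.59 ± 0.31 (SE) did not pass (limma FDR = 0.206).

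Of 20 genes of cell division, 5 were higher and 0 lower, against 8.42% of all genes called higher. They were Ube2c (1.46), Ccna2 (1.03), Mki67 (0.73), Ccnb2 (0.63) and Tpx2 (0.47), with a list median of 0.01. The ubiquitin enzyme Ube2c ran from 11.11 over 12.25 to 13.73 in D06 and from 10.02 over 10.51 to 11.69 in E07 mice (limma FDR = 6.84e-05). The DNA replication genes Pcna (-0.02) and Mcm7 (-0.26) did not pass. With total-count scaling 2 were called higher and 10 lower.

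Platelet genes were nearly all higher in D06 mice. Of 25, 22 rose and 0 fell, with a median of 0.60 and differences from 0.42 to 0.85 among those called. Gp9, a subunit of the platelet receptor for von Willebrand factor, ran from 11.91 over 12.64 to 13.14 in D06 and from 11.27 over 11.64 to 12.21 in E07 mice. Of the D06 mice, 8 lay above the E07 range, and the difference was 0.85 ± 0.14 (SE), a 1.81-fold change (limma FDR = 7.07e-05). The platelet chemokine Pf4 (14.20, 14.95 and 15.50 against 13.69, 14.17 and 14.56 as lowest, median and highest) differed by 0.75 ± 0.13 (SE, limma FDR = 0.000207), also with 8 D06 mice above the E07 range. Its neighbour Ppbp (0.75), the podoplanin receptor Clec1b (0.79), the ADP receptor P2ry12 (0.71), the integrin chains Itga2b (0.51) and Itgb3 (0.42), and von Willebrand factor itself (Vwf, 0.55) rose as well. Selp (0.31), Rap1b (0.28) and Trpc6 (0.23) did not pass. Without D06 mouse 5, 19 genes passed, and Vwf was among those lost. With total-count scaling the platelet median was 0.05 with 0 genes called in either direction, and Itga2b, Itgb3 and Vwf were slightly below 0, so the platelet genes were higher relative to the typical gene and not as a share of all reads. The mean vst value of the list exceeded every E07 mouse in 8 of 12 D06 mice.

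**Figure D4:**
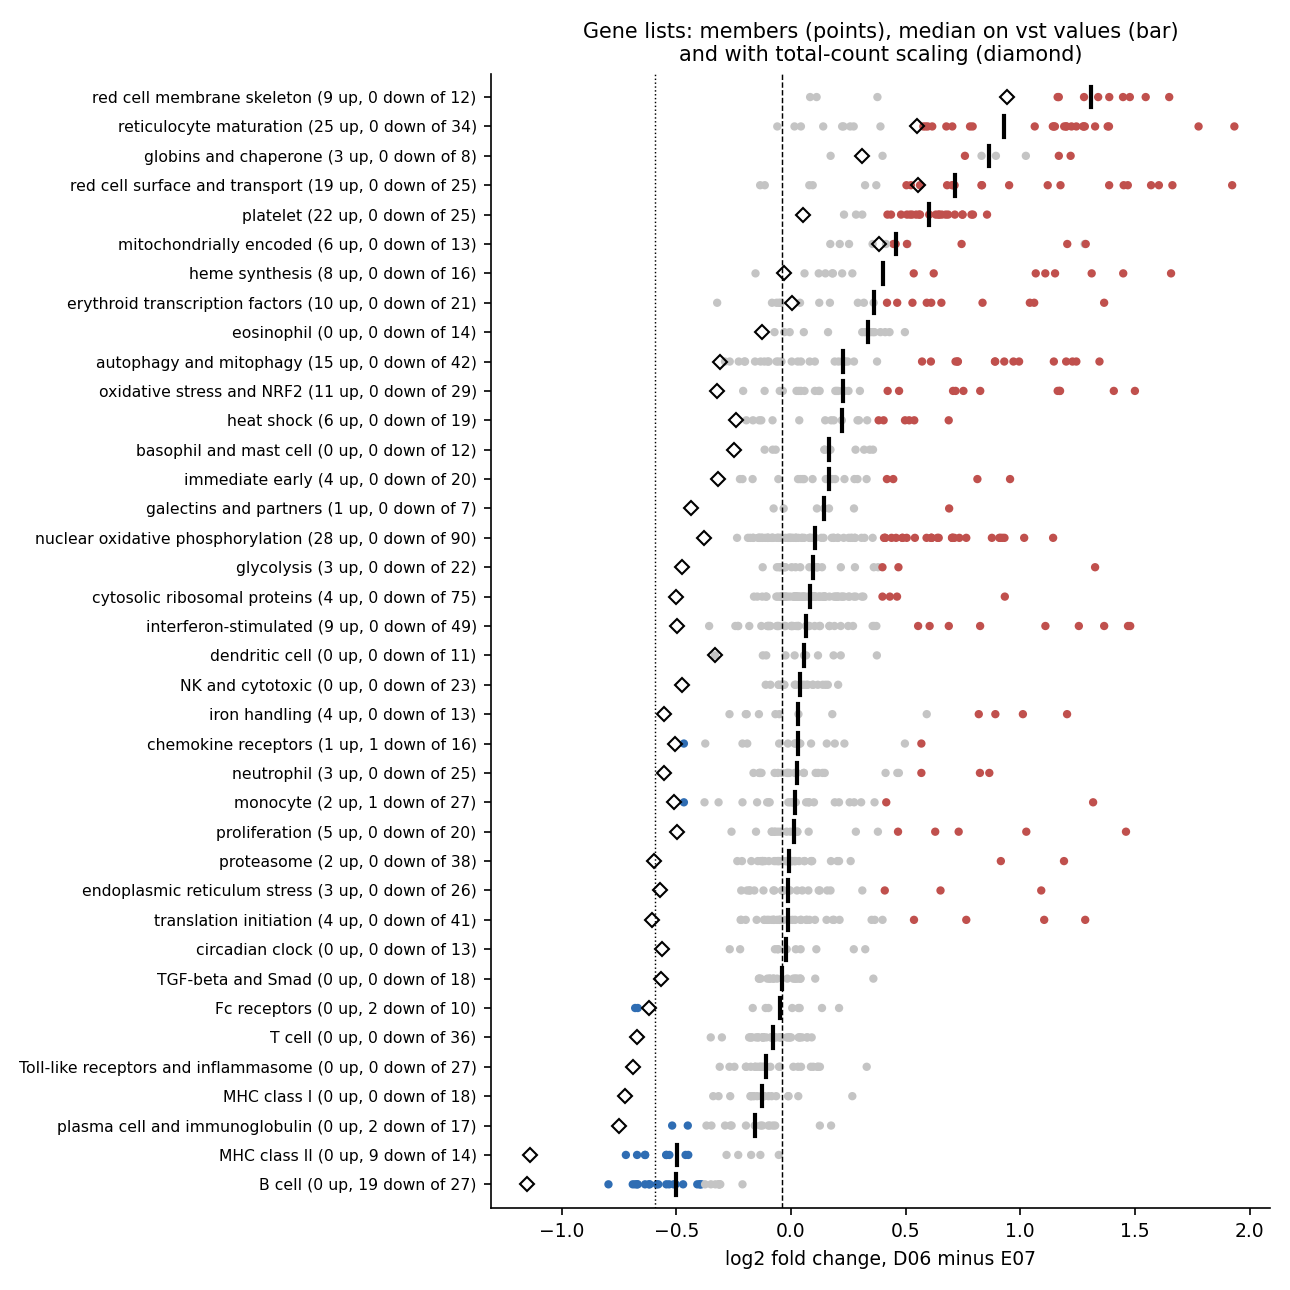
Difference between D06 and E07 mice (log2, x axis) of each member (points: red called higher, blue called lower, grey not called) of 38 gene lists, ordered by the list median on vst values (bar), with the median under total-count scaling (diamond). Dashed and dotted lines mark the median of all genes at -0.04 and -0.59 on these scales. The red cell membrane skeleton list stands highest and the B cell and MHC class II lists lowest on both.

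B cell genes were lower in D06 mice. Of 27, 19 were lower and 0 higher, against 1.34% of all genes called lower, and the median was -0.50. Ighd, the heavy chain of the IgD receptor on naive B cells, ran from 11.19 over 11.91 to 12.34 in D06 and from 12.15 over 12.66 to 13.12 in E07 mice. Of the D06 mice, 9 lay below the E07 range, and the difference was -0.80 ± 0.13 (SE), a 0.576-fold level (limma FDR = 8.3e-05). Cd22, an inhibitory co-receptor of the B cell receptor, had 9.87, 10.27 and 10.94 as lowest, median and highest in D06 and 10.50, 11.07 and 11.34 in E07 mice (difference -0.69 ± 0.11 SE, limma FDR = 8.3e-05), with 10 D06 mice below the E07 range. The receptor chains Cd79a (-0.51) and Cd79b (-0.62), the low-affinity IgE receptor Fcer2a (-0.67), the IgM receptor Fcmr (-0.68), the complement receptor Cr2 (-0.54) and the lineage factor Pax5 (-0.41) fell. Ms4a1, which encodes CD20, ran from 10.87 over 11.69 to 12.26 in D06 and from 11.43 over 11.90 to 12.28 in E07 mice. Its difference of -0.31 ± 0.14 (SE) did not pass (limma FDR = 0.141), nor did Igkc (-0.31) or Cxcr5 (-0.21). All 27 members were negative, and with total-count scaling all 27 were called lower with a median of -1.15, which is -0.56 relative to the median of all genes. Without D06 mouse 5, 16 passed. With the red cell score as a covariate the median was -0.29 with 0 called.

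The MHC class II genes, which present antigen on B cells, dendritic cells and monocytes, moved by a like amount, with 9 of 14 lower, 0 higher and a median of -0.50. H2-Aa, the alpha chain of I-A, ran from 11.40 over 12.90 to 13.43 in D06 and from 12.95 over 13.52 to 13.81 in E07 mice (difference -0.72 ± 0.17 SE, limma FDR = 0.00327), with 7 D06 mice below the E07 range. Its partner H2-Ab1 (-0.64) was below the E07 range in 11 of 12 D06 mice. The class II transactivator Ciita (-0.67) and the invariant chain Cd74 (-0.54) also fell, while H2-DMa (-0.28) and the protease Ctss (-0.13) did not pass. Id3 (-0.68), an inhibitor of helix-loop-helix factors, and Icosl (-0.61), the ligand of the T cell co-stimulator ICOS, were among the 15 genes with the largest decrease, as was Trim7 (-0.71). Of 17 genes of plasma cells and immunoglobulins, only the lambda constant regions Iglc2 (-0.45) and Iglc3 (-0.52) passed, and reads of these near-identical segments may be shared. Without D06 mouse 5, Iglc2 no longer passed. Jchain, made by antibody-secreting cells, differed by 0.17 and Igha by -0.10.

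Other leukocyte lists changed little relative to the typical gene. Of 36 T cell genes, limma called 0 (6 at an unadjusted p under 0.05) and edgeR 0, with a median of -0.08. Of 23 genes of NK and cytotoxic cells, limma called 0 (0 at an unadjusted p under 0.05) and edgeR 0, with a median of 0.04. Cd3e, a chain of the T cell receptor complex, ran from 10.00 over 10.52 to 11.10 in D06 and from 10.34 over 10.71 to 10.97 in E07 mice, a difference of -0.09 ± 0.11 (SE, limma FDR = 0.655). With total-count scaling 35 of the 36 T cell genes were called lower, with a median of -0.67, which is -0.08 relative to all genes. The mean of the B cell list was below every E07 mouse in 9 of 12 D06 mice, against 5 of 12 for the T cell list. A difference between B and T cell genes was not itself tested.

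**Figure D5:**
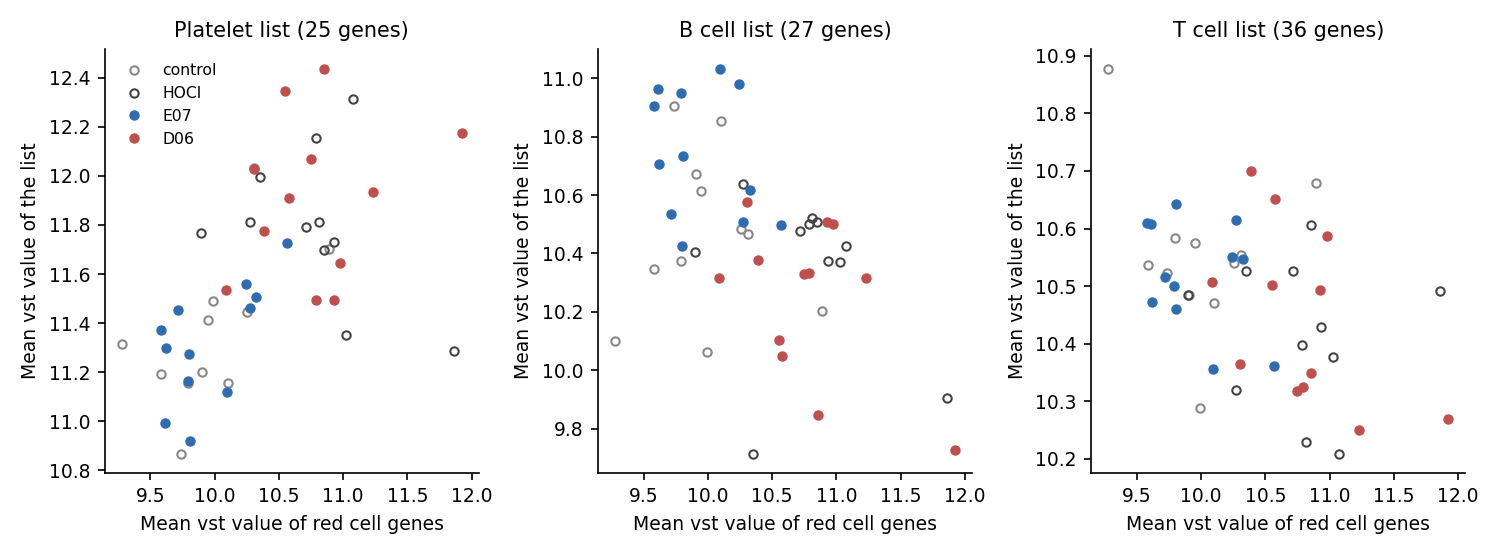
Mean vst value of the platelet, B cell and T cell lists (y axes) against the mean vst value of the red cell genes (x axes) in each mouse of the control, HOCl, E07 and D06 groups. D06 mice lie to the right of most E07 mice, higher for the platelet list and lower for the B cell list, and overlap them for the T cell list.

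Among 25 neutrophil genes, 3 were higher and 0 lower, a share near the 8.42% of all genes called higher, and with total-count scaling 1 was called higher and 14 lower. The antimicrobial granule genes Ngp and Camp, made in neutrophil precursors, rose by 0.86 ± 0.28 (SE, limma FDR = 0.0347) and 0.82 ± 0.24 (SE, limma FDR = 0.0147). For Ngp, D06 mice ran from 7.82 over 8.87 to 11.37 and E07 mice from 7.68 over 8.30 to 9.32, and only 3 D06 mice lay above the E07 range. The chemokine receptor Cxcr4 (0.57) also passed, but not without D06 mouse 5, while lactoferrin (Ltf, 0.41), S100a8 (0.12) and Csf3r (-0.16) did not. Among 27 monocyte genes, the scavenger receptor Cd36 (1.32), which platelets and red cell precursors also express, and the endotoxin co-receptor Cd14 (0.42) were higher and Cx3cr1 (-0.47), the fractalkine receptor of patrolling monocytes, was lower. Csf1r (-0.09) and Ly6c2 (0.02) did not pass. These 2 higher genes of 27 are also near the share over all genes, and with total-count scaling 1 was called higher and 18 lower. Of 14 eosinophil genes limma called 0 (6 at an unadjusted p under 0.05) and edgeR 1, although the median was 0.33. The eotaxin receptor Ccr3 ran from 8.74 over 10.20 to 11.15 in D06 and from 8.89 over 9.40 to 10.41 in E07 mice (difference 0.50 ± 0.24 SE, limma FDR = 0.168).

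Of 49 interferon-stimulated genes, 9 were higher and 0 lower, with a median of 0.07. This is 9 of 49 against 8.42% of all genes, and against 587 of the 2627 most abundant genes. Those begin at a mean vst value of 9.39, and the list mean was 9.88 at the median in D06 and 9.64 in E07 mice. The members that passed were Rsad2 (1.48), Isg15 (1.47), Isg20 (1.37), Irf7 (1.26), Oas3 (1.11), Ifit1 (0.82), Usp18 (0.69), Igtp (0.60) and Ifitm3 (0.55). Isg15, a ubiquitin-like modifier, ran from 12.11 over 12.94 to 14.44 in D06 and from 10.98 over 11.36 to 12.25 in E07 mice. All but 1 D06 mouse lay above the E07 range, and the difference was 1.47 ± 0.19 (SE), a 2.77-fold change (limma FDR = 1.54e-05). Rsad2, the antiviral enzyme viperin, ran from 14.20 over 15.39 to 17.67 in D06 and from 13.14 over 14.02 to 15.18 in E07 mice (difference 1.48 ± 0.27 SE, limma FDR = 0.000298). Igtp, an interferon-gamma-induced GTPase, did not overlap between the groups, with 11.87 to 12.66 in D06 and 11.36 to 11.82 in E07 mice (limma FDR = 3.86e-05). In contrast, the list members Mx1 (-0.05), Ifit3 (0.03) and Irf9 (-0.24) did not pass, and Mx1 had few counts, at most 150 in D06 and 184 in E07 mice. With total-count scaling 5 genes were called higher and 30 lower, and Ifitm3 was at -0.01. With the red cell score as a covariate Isg15 kept 0.52, Irf7 0.43 and Igtp 0.38, and Rsad2 fell to 0.02, none of them past the threshold. Score and treatment were largely shared, so that fit cannot give the part of red cell transcripts in these differences, which was not tested.

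The promoters of Isg15 and Rsad2 are shown because they hold the core of the interferon-stimulated response element, through which interferon factors act, on opposite strands. They are again 250 bases before the gene start in GRCm39, and capitals mark GAAA, any 2 bases and GAAA or, on the other strand, TTTC, any 2 bases and TTTC, with overlapping matches in Isg15 run together.
Isg15, chr4:156285304-156285553, minus strand: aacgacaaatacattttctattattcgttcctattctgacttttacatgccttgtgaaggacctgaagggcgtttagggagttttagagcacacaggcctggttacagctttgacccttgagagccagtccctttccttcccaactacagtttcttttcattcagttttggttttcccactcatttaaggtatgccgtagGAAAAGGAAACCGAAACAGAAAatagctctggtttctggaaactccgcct
Rsad2, chr12:26506452-26506701, minus strand: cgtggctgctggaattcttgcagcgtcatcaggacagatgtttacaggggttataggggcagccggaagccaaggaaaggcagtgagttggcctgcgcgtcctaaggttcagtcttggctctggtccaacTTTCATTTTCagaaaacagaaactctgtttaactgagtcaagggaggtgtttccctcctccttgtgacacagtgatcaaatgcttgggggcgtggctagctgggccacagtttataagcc
The matches begin at -50, -44 and -38 in Isg15 and at -120 in Rsad2. The motif was in the window of 18 of the 49 interferon-stimulated genes (36.7%) against 3.29% of all genes tested. It was in 5 of the 9 called higher and in 13 of the 40 that were not, so members with the motif were found among both.

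Genes against oxidative stress answer oxidants such as HOCl. Of 29, and against 8.42% of all genes called higher, 11 were higher and 0 lower, with a median of 0.23. These included antioxidant enzymes that are abundant in red cells. Glutathione peroxidase (Gpx1) ran from 16.23 over 17.51 to 18.99 in D06 and from 15.28 over 15.85 to 16.90 in E07 mice (a 2.83-fold change, limma FDR = 5.01e-05), with 11 D06 mice above the E07 range. Peroxiredoxin 2 (Prdx2, 1.41), catalase (Cat, 1.17), the glutathione synthesis subunit Gclm (1.16) and Nqo1 (0.75), a classic target of NRF2, rose too. NRF2 itself (Nfe2l2, 0.03), its inhibitor Keap1 (-0.21), its target Hmox1 (0.06) and thioredoxin reductase (Txnrd1, -0.12) did not pass. With total-count scaling 6 were called higher and 10 lower, and with the red cell score as a covariate the list median was 0.05.

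Of 42 autophagy genes, 15 were higher and 0 lower, against 8.42% of all genes called higher. Among the 15 were Fundc2 (1.23), the protease Atg4a (1.35), the kinase Pink1 (0.99), which marks damaged mitochondria, and the tag protein Gabarapl1 (0.73). With total-count scaling 9 were called higher and 18 lower, with a median of -0.31. The core conjugation gene Atg5 (-0.06) and Atg16l2 (-0.29) did not pass. Fundc2 did not overlap between the groups, with 12.00 to 13.38 in D06 and 10.66 to 11.93 in E07 mice, and its FDR of 6.67e-06 by limma was the smallest of the table, shared with Tmem256, Paip2 and S100a13.

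Of 13 mitochondrially encoded genes, 6 were higher and 0 lower, against 8.42% of all genes called higher. mt-Co1, a subunit of cytochrome oxidase, ran from 17.15 over 17.43 to 18.08 in D06 and from 16.24 over 16.73 to 17.05 in E07 mice without overlap (difference 0.74 ± 0.11 SE, limma FDR = 5.01e-05). mt-Co2, another subunit, spread far more widely, from 8.68 over 9.97 to 13.62 in D06 and from 8.28 over 8.65 to 10.52 in E07 mice (difference 1.29 ± 0.43 SE, limma FDR = 0.0378). Its highest value, a count of 16033, was that of D06 mouse 8, against at most 1650 in E07 mice. mt-Co3 (1.20) and mt-Atp6 (1.28, not passing) behaved alike, and reads of these genes may be shared with nuclear copies, so their values are uncertain. mt-Nd5 (0.17) did not pass. Nuclear genes of oxidative phosphorylation were higher in 28 of 90 cases and lower in 0, with a median of 0.10, led by the ATP synthase subunit Atp5l (1.14) and Cox7a2 (1.02). These 28 of 90 stand against 8.42% of all genes and 587 of the 2627 most abundant, which begin at a mean vst value of 9.39. The list mean was 9.75 at the median in D06 and 9.50 in E07 mice. With total-count scaling 3 of the 90 were called higher and 43 lower, and 0 of the 13 mitochondrial genes were called higher and 2 lower.

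Genes of the heat shock response rose in part, with 6 of 19 higher, against 8.42% of all genes called higher. The other 13 did not pass and 0 were lower. On vst values the list median was 0.22, with differences from -0.19 to 0.69. With total-count scaling 0 were called higher and 5 lower, with a median of -0.24. Dnajb1, a co-chaperone of HSP70 that heat shock factor induces, ran from 9.14 over 9.70 to 10.50 in D06 and from 8.88 over 9.09 to 9.44 in E07 mice. Of the D06 mice, 10 lay above the E07 range (difference 0.69 ± 0.13 SE, limma FDR = 0.000437). Hsph1 (0.54) and Dnaja1 (0.52) also passed, the latter with a sign that turned under total-count scaling (-0.03), and 4 of the 6 passed without D06 mouse 5. Cirbp, the cold-inducible RNA-binding protein, was lower without overlap, from 8.33 over 9.32 to 9.65 in D06 and from 9.71 over 9.98 to 10.37 in E07 mice (difference -0.79 ± 0.12 SE, limma FDR = 5.15e-05). The other cold-inducible protein Rbm3 differed by -0.17 (limma FDR = 0.322). Of 20 immediate early genes, 4 were higher and 0 lower, again against 8.42% of all genes called higher. Fos was at 0.96 and Dusp1 at 0.81, Egr1 at 0.15 did not pass, and 2 of the 4 passed without D06 mouse 5. With total-count scaling 1 was called higher and 8 lower.

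Galectin genes showed little difference. Lgals3, which encodes the target of E07, ran from 10.53 over 10.96 to 11.48 in D06 and from 10.43 over 10.90 to 11.38 in E07 mice. The ranges overlapped almost wholly, and the difference was 0.14 ± 0.12 (SE, limma FDR = 0.451), or -0.44 with total-count scaling, where the median of all genes was -0.59. E07 acts on the protein, which these data do not measure. Lgals1 (0.11), Lgals9 (0.27), Lgals4 (-0.03), Lgals8 (-0.08) and the binding protein gene Lgals3bp (0.17) did not pass. Lgalsl, a galectin-like gene, was higher in D06 mice, from 9.05 over 9.62 to 10.19 against 8.57 over 8.98 to 9.26, with 10 D06 mice above the E07 range (difference 0.69 ± 0.11 SE, limma FDR = 8.98e-05). Of 10 Fc receptor genes, which bind antibodies of several classes, the B cell genes Fcer2a and Fcmr were lower, and Fcgr2b (0.03), Fcgr1 (-0.10) and the neonatal receptor gene Fcgrt (-0.11) did not pass.

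The largest single difference, that of Bpifa6 (2.06 ± 0.63 SE, limma FDR = 0.0241), rested on some of the D06 mice. Its count was 0 in 6 D06 mice and reached 4235 in the others, while it was 0 in 7 E07 mice and at most 20. The median vst value was 7.35 in D06 mice and at the lowest value of the gene in E07 mice, and 6 D06 mice lay above the E07 range. The apolipoprotein L gene Apol11b (1.94 ± 0.44 SE, limma FDR = 0.00196) was spread from 9.17 over 11.49 to 13.41 in D06 and from 8.22 over 9.19 to 11.57 in E07 mice. The other genes with the largest increase included red cell genes named above, together with Prxl2a (1.69), Cmas (1.63), Dhrs11 (1.62) and Tmcc2 (1.58), each above the E07 range in 10 of 12 D06 mice.

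In 13 genes (0.124%) the vst ranges of D06 and E07 mice did not overlap. They were chosen after their values were seen, and they were Fundc2, Tmem256, Paip2, Tubb2a, Prkar2b, Sh3bgrl2, Borcs8, Cfap97d2, Dynll1, Sdcbp, mt-Co1 and Igtp, all higher, and Cirbp, lower. Tmem256 had the largest difference of these, from 12.91 over 13.42 to 14.13 in D06 and from 11.46 over 12.13 to 12.91 in E07 mice (1.31 ± 0.16 SE). Paip2, an inhibitor of translation through poly(A)-binding protein, ran from 12.63 to 13.86 in D06 and from 11.80 to 12.54 in E07 mice (0.93 ± 0.11 SE). The beta-tubulin gene Tubb2a differed by 0.78 and the protein kinase A subunit gene Prkar2b, also found in platelets, by 0.71. With total-count scaling Sdcbp was at -0.04 and the other 11 higher genes kept their sign. Raw counts of some were close, however. Their medians in D06 and E07 mice were 1393.5 and 1441.5 for Dynll1, 6121.5 and 6193 for Sh3bgrl2, and 4111.5 and 3915 for Igtp. For Fundc2 they were 4854.5 and 3126.5, and for Tmem256 9374.5 and 5457.5. The lack of overlap on vst values is thus relative to the typical gene.

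The 20 genes that edgeR called with the red cell score as a covariate, also chosen after their values were seen, included Lgalsl, Fundc2, Paip2, Tubb2a, Gabarapl1, Cfap97d2, mt-Co2 and mt-Co3. Lgalsl had a difference of 1.00 in that fit (edgeR FDR = 0.0253) and Fundc2 one of 0.62 (edgeR FDR = 0.0411). The calcium-binding genes S100a10 and S100a13, the cytochrome gene Cyb5a, Ipo11, Ifi47, Ftl1-ps1, Gm11808 and Gm49391 were also among the higher ones, and Hnrnpd, Ambra1 and Sorl1 were lower. Some rested on part of the D06 mice. Gm11808 had a median of 1497.5 counts and a highest of 11945, with 2 D06 mice above the highest E07 count. That number was 3 for Gm49391 and 4 for Ftl1-ps1 and mt-Co2, against 8 for S100a13, 9 for Paip2 and 11 for Fundc2. D06 mouse 8, highest in mt-Co2, had the lowest D06 red cell score (-0.39). Of the 20, 17 were among the 1026 genes called on vst values.

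Compared with the untreated groups, D06 lay near HOCl and E07 near control for most of the higher genes. The HOCl mean was nearer to D06 than to E07 for 793 of the 885 higher genes, and the control mean was nearer to E07 for 866. For the 141 lower genes these counts were 80 and 88. The genes were chosen on the D06 and E07 values, which by itself sets these groups towards the ends, so the counts are a description. The D06 mean lay beyond the HOCl mean for 606 of the 885 higher genes and the E07 mean beyond the control mean for 587. Slc4a1 was among those whose D06 mean lay below the HOCl mean. For Slc4a1 the group means were 14.18 in D06, 14.55 in HOCl, 12.52 in E07 and 12.75 in control mice. For Ighd the means were 11.89 in D06, 12.15 in HOCl, 12.28 in control and 12.69 in E07 mice, so the untreated groups lay between the treated ones. The D06 mean lay beyond the HOCl mean for 129 of the 141 lower genes and the E07 mean beyond the control mean for 129. Cx3cr1 was lower in both treated groups (7.90 in D06 and 8.37 in E07) than in HOCl (8.73) and control mice (8.74), and Ccr3 was higher in both (10.05 and 9.56 against 8.89 and 8.83).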

How the data were processed

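Whole blood was collected at the end of the experiment, and libraries were made with poly A selection, globin depletion and a strand-specific TruSeq kit. Raw counts of reads per gene, 55416 genes in 71 mice, were deposited by the authors, who made them with cutadapt, STAR and featureCounts on mm39, whose versions and annotation are not given in the sources used here. They also deposited log2-like values from the vst function of DESeq2, 10508 genes in 70 mice, after removing non-coding and low genes. These values are relative to the typical gene of each mouse. Columns without a sample numbered 0.

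The vst values of 12 D06 and 12 E07 mice entered limma 3.58.1 under R 4.3.3 (FDR at most 0.05 by Benjamini-Hochberg, FC at least 1.3). The quasi-likelihood test of edgeR 4.0.16 with TMM factors was run on counts of the same genes, leaving out 3 genes not matched to counts, and with DESeq2 1.42.0. Single values (5) per mouse were compared by permutation tests (two-sided, 100000 resamples, Python 3.11.15, scipy 1.17.1), adjusted over the 5. Total-count scaling was log2 of CPM plus 1. The mice were separate animals. Genes with few counts are the least precise at this depth, 12427021 to 15948972 counts a mouse. No pair of mice of a group agreed within sampling noise (chi-square per degree of freedom from 17.2 over 132 pairs).

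Genes named were members of 38 lists, the 15 largest higher and lower genes past both thresholds, and Lgals3, and some of these genes are not reported here. The comparison, members and lists were chosen with earlier results of these data known, so no list is independent support. On simulated counts of 10505 genes with 200 changed, limma recovered 44% of genes changed 1.5-fold and 81% of those changed 2-fold with 4 false calls. Alternatives were other tests, filters, scalings and groups in the fit, each mouse left out, the mouse number as a replicate block and a red cell score as a covariate. Gene starts are those of the canonical transcripts of GENCODE vM39 on GRCm39, and 10499 of the 10508 genes had a promoter window.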

Additional observations from a re-analysis of the deposited data

How the results depend on the processing

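The count of 1026 genes changed by over 1.5 times with the FDR alone (1627), with edgeR on all genes with at least 10 counts in at least 12 mice (1565), with filterByExpr (1566) or with any count (3202, also against the 1322 of edgeR on the vst genes), with total-count scaling (7793), and with the red cell score as a covariate, by limma (0) or by edgeR (20, chosen after seeing the data). It was 1016 with all 6 groups in the fit, 1428 with DESeq2, 1329 with DESeq2 size factors in edgeR, 1009 with trend and robust variances and 1041 with each mouse centred on its median, which moved the split to 947 higher and 94 lower. Leaving out each mouse gave 933 to 1119 genes, lowest without D06 mouse 5 and highest without D06 mouse 8, with 900 to 1018 shared.

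Mouse numbers come from the labels of different animals. Same-numbered mice correlated between -0.12 and 0.35, over 0.1 in 4 of 12 pairs, and 3 of 12 correlated best with their own number. The mean correlation was 0.076 for the same number and -0.0051 for other numbers. Whether mice of the same number shared more than that number was not tested. With that number as a replicate block, limma called 1042 and edgeR 1265 genes.

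Directions that turned under total-count scaling, all to negative values, were Actb -0.51, Add1 -0.20, Atf4 -0.16, Ccr3 -0.025, Dnaja1 -0.027, Egr1 -0.096, Fcgr2b -0.54, Hmox1 -0.47, Ifi47 -0.36, Ifit3 -0.52, Ifitm3 -0.015, Itga2b -0.081, Itgb3 -0.15, Jchain -0.41, Lgals1 -0.46, Lgals3 -0.44, Lgals3bp -0.39, Lgals9 -0.30, Ly6c2 -0.56, Nfe2l2 -0.55, Rap1b -0.31, S100a8 -0.48, Sdcbp -0.044, Slc2a1 -0.46, Slc2a3 -0.11, Tmod3 -0.47, Tpi1 -0.17, Trpc6 -0.19, Vwf -0.0038 and mt-Nd5 -0.42. With the red cell score as a covariate, by limma and by edgeR, these were Add1 -0.11 and -0.11, Ank1 -0.21 and -0.14, Asns -0.25 and -0.30, Atg16l2 0.073 and 0.078, Cat -0.075 and -0.068, Ccnb2 -0.23 and -0.20, Cd3e 0.11 and 0.13, Cxcr5 0.034 and 0.020, Epb41 -0.28 and -0.28, Hba-a1 -0.87 and -0.68, Hba-a2 -0.75 and -0.37, Hbb-bs -0.37 and -0.24, Hmox1 -0.23 and -0.25, Ifitm3 -0.097 and -0.098, Igha 0.0098 and 0.13, Igkc 0.042 and 0.049, Iglc2 0.036 and 0.072, Lgals3 -0.024 and -0.031, Lgals3bp -0.15 and -0.16, Lgals8 0.0040 and 0.013, Lgals9 -0.12 and -0.12, Ltf -0.35 and -0.26, Mki67 -0.34 and -0.35, Mpp1 -0.062 and -0.057, Mx1 0.093 and 0.058, Ncoa4 -0.32 and -0.36, Nfe2l2 -0.099 and -0.11, Pabpc1 -0.041 and -0.036, Psme3 -0.043 and -0.040, S100a8 -0.12 and -0.017, Sptb -0.11 and -0.075, Tfrc -0.54 and -0.92, and Tpx2 -0.078 and -0.029, by limma alone Xpo7 -0.041, and by edgeR alone Ly6c2 -0.0033 and Ms4a1 0.0078. With each mouse centred on its median Pcna turned to 0.0038. Leaving out single mice turned the direction of 9 genes that did not pass, with ranges over the mice left out of Atg5 -0.10 to 0.022, Fcgr2b -0.015 to 0.083, Hmox1 -0.0094 to 0.15, Ifit3 -0.0071 to 0.085, Lgals4 -0.054 to 0.028, Ly6c2 -0.015 to 0.066, Mx1 -0.11 to 0.0048, Pcna -0.056 to 0.024 and S100a8 -0.061 to 0.18. The cause of these changes was not tested. Distances to the group centre with genes scaled to SD 1 differed by 0.329 (permutation p = 2e-05).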

Other observations

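Gene groups of general cell physiology had list medians near that of all genes, and the shares of members called higher were near or below the 8.42% of all genes, except for 3 of 26 and 3 of 22 in the lists of endoplasmic reticulum stress and glycolysis. Of 75 cytosolic ribosomal protein genes, 4 were higher and 0 lower with a median of 0.08, led by Rpl41 (0.93), while ribosomal proteins took 5.88% ± 1.29 (SD, n = 12) of all counts in D06 and 7.71% ± 0.975 (SD, n = 12) in E07 mice. Of 41 translation initiation genes, 4 were higher and 0 lower (median -0.02), among them Eif5 (1.28) and the poly(A)-binding protein gene Pabpc1 (1.10). Of 38 proteasome genes, only the activator subunit Psme3 (1.19) and the ubiquitin receptor Psmd4 (0.92) were higher and 0 were lower. Of 26 genes of endoplasmic reticulum stress, 3 were higher, namely Ppp1r15a (1.09), which restores translation after stress, Asns (0.65) and Atf4 (0.41), and 0 were lower. Of 22 glycolysis genes, 3 were higher, namely Bpgm (1.33), the red cell enzyme that makes bisphosphoglycerate, Slc2a3 (0.47) and Tpi1 (0.40), and 0 were lower. With total-count scaling Atf4 (-0.16), Slc2a3 (-0.11) and Tpi1 (-0.17) turned negative. With that scaling the ribosomal list had 0 genes called higher and 58 lower, translation initiation 2 and 32, the proteasome 1 and 33, endoplasmic reticulum stress 2 and 18, and glycolysis 1 and 14. Of 16 chemokine receptor genes only Cxcr4 was higher and Cx3cr1 lower.

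In the remaining lists limma called 0 genes. These were 18 MHC class I genes (median -0.12, 4 at an unadjusted p under 0.05, edgeR 1 lower), 27 genes of Toll-like receptors and the inflammasome (median -0.11, 3, edgeR 0), 18 of TGF-beta and its Smads (median -0.04, 1, edgeR 1 higher), 13 of the circadian clock (median -0.02, 2, edgeR 1 higher), 11 of dendritic cells (median 0.06, 3, edgeR 1 lower) and 12 of basophils and mast cells (median 0.17, 3, edgeR 1 higher).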
